A study of Bos taurus with 12 samples.

Results

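The genes described here mark T cells and natural killer (NK) cells, the lymphocytes that recognise antigen or kill stressed cells, in endometrial biopsies, tissue from the uterine lining, of dairy cows kept at pasture. The list held 39 gene symbols, chosen by name for their known roles in these cells. The rule used no measured value, but the list was drawn up with earlier results of these data known. Of these, 36 had a row among the 13930 symbols of the count table. CD6, IL2RB and SKAP1 had none and were not analysed here. Reads sufficed to test 33 of the 36 in all comparisons. CD27, CD28 and CTLA4 were too sparsely counted to be tested.

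Biopsies were taken on day 4 of the estrous cycle, and the 12 libraries of messenger RNA fell into 4 classes of 3 by the progesterone recorded for that day. The very low class, titled ANE, lay below 0.25 ng/ml. The low class, titled LPP4, lay below 1.4, a bound that its labels give in mg/dl. The high class, titled HPP4, exceeded 2.5 ng/ml, and that titled SO, the very high one, exceeded 20 ng/ml. The question was how progesterone in early diestrus relates to gene expression in this tissue. The sources used here give neither the meaning of ANE and SO nor the age of the animals. Nor do they state that each of the 3 replicates came from its own cow. The p-values therefore measure only how these samples vary, and that variation may be technical.

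T cells recognise peptide antigens through a receptor that signals by way of the CD3 chains, and the kinases LCK and ZAP70 pass that signal to the adaptors LAT and LCP2. CD4 marks helper T cells, whereas CD8, a pair of chains made by CD8A and CD8B, marks cytotoxic T cells. Cytotoxic T cells and NK cells kill with the pore protein perforin and with granzymes. In ruminants many endometrial lymphocytes lie between the epithelial cells and carry CD8. In a bulk biopsy fewer cells of a type and less RNA per cell cannot be told apart, and this holds for every value below.

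The libraries held 3772564 to 8379489 counted reads, very low replicate 2 being the smallest. All values are CPM, reads per 1000000 of the TMM-scaled library size, unless a log2 value is named. Epithelial and stromal markers were detected in every library, as fits endometrium, but very low replicate 1 had an epithelial marker mean of 3.63 log2 CPM where the other 11 libraries had 6.52 to 8.56. Its smooth muscle marker mean was 11.5 log2 CPM. That mean was 9.07 to 10.4 in the 6 libraries of the upper classes and 4.57 to 5.92 in the remaining 5 libraries. Counts of calls and medians are also given without very low replicate 1 or 2, as are some fold changes and slopes without replicate 2.

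Most T and NK cell genes were high and low in the same libraries, and the 3 richest libraries were very low replicate 2, low replicate 1 and low replicate 3. For 25 of the 33 tested genes these were the 3 highest libraries. The exceptions were CD8B, PRF1, GZMB, KLRK1, IL7R, EOMES, RUNX3 and PTPRCAP. The single highest value lay in very low replicate 2 for 16 genes, in low replicate 1 for 11 and in low replicate 3 for 4. The lowest value lay in very high replicate 3 for 11 genes, in high replicate 3 for 10 and in high replicate 2 for 6. The very high class had the lowest mean of the 4 classes for 24 genes and the high class for 8. The low class had the highest mean for 21 genes and the very low class for 12.

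**Figure D1:**
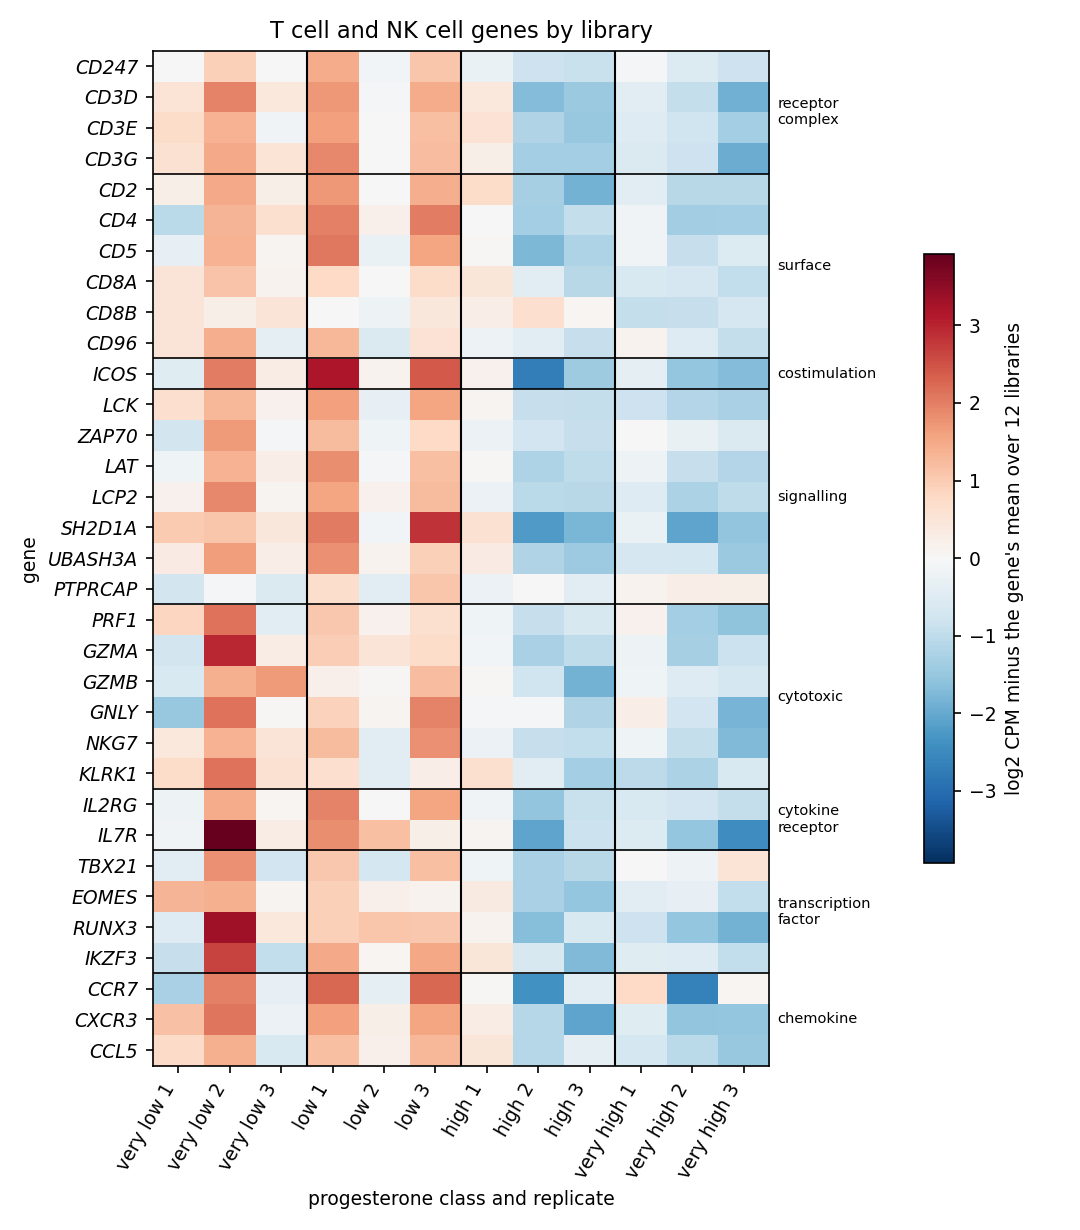
Each row is one of the 33 tested T and NK cell genes, grouped by role, and each column is a library, with the 4 progesterone classes separated by vertical lines. Colour gives log2 CPM minus that gene's mean over the 12 libraries, from -2.72 to 3.92. Very low replicate 2 and low replicates 1 and 3 are red in most rows. CD8B does not follow them, at 0.220, -0.008 and 0.452. PTPRCAP follows low replicates 1 and 3 (0.689 and 1.08) but not very low replicate 2 (-0.080).

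Replicates of a class differed widely in these genes. The median ratio of the highest to the lowest library of a class was 3.22 in the very low, 3.26 in the low, 3.09 in the high and 1.89 in the very high class. The widest such spread was that of IL7R in the very low class, at 19.0.

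The invariant chains of the T cell receptor were lower in the 2 upper classes, without passing the test across all genes. CD3E, a signalling chain that every T cell receptor needs, had 78.3, 123 and 43.7 CPM in the very low libraries and 145, 48.2 and 109 CPM in the low libraries. It had 70.4, 20.7 and 16.6 CPM in the high and 33.2, 27.5 and 18.9 CPM in the very high libraries. All 3 very high libraries therefore lay below every very low and low library, while high replicate 1 lay among them. The log2 fold change of very high over very low was -1.62 with a standard error (SE) of 0.60 (edgeR adjusted p = 0.144). CD3D, its partner chain, had 15.9, 43.1, 14.7, 36.2, 10.2 and 30.2 CPM in the very low libraries and low libraries, in that order. It had 14.5, 3.19, 3.82, 8.12, 5.61 and 2.77 CPM in the high and very high ones. High replicate 1 stood above the rest of the upper classes in it. CD3G, the gamma chain, had 9.01, 16.8, 8.58, 22.3, 5.89 and 14.0 CPM in the very low libraries and low libraries. It had 6.98, 2.17, 2.18, 3.89, 3.24 and 1.32 CPM in the high and very high ones. In both, as in CD3E, every very high library lay below every library of the lower classes. CD247, the zeta chain, which NK cells use as well, differed less than the CD3 chains between the extreme classes. Its levels were 28.8, 55.5 and 28.9 CPM in the very low libraries and 79.3, 26.6 and 60.8 CPM in the low libraries. It had 23.9, 16.1 and 15.4 CPM in the high and 27.5, 19.7 and 16.4 CPM in the very high libraries. Very high replicate 1 lay within the low class for CD247, which was not the case for CD3E. The log2 fold change of CD247 was -0.83 (SE 0.41) for very high over very low and -1.59 (SE 0.42) for high over low (edgeR adjusted p = 0.250 and 0.351). For high over low CD3E, CD3D and CD3G had -1.49, -1.83 and -1.89, so CD247 did not stand out there.

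**Figure D2:**
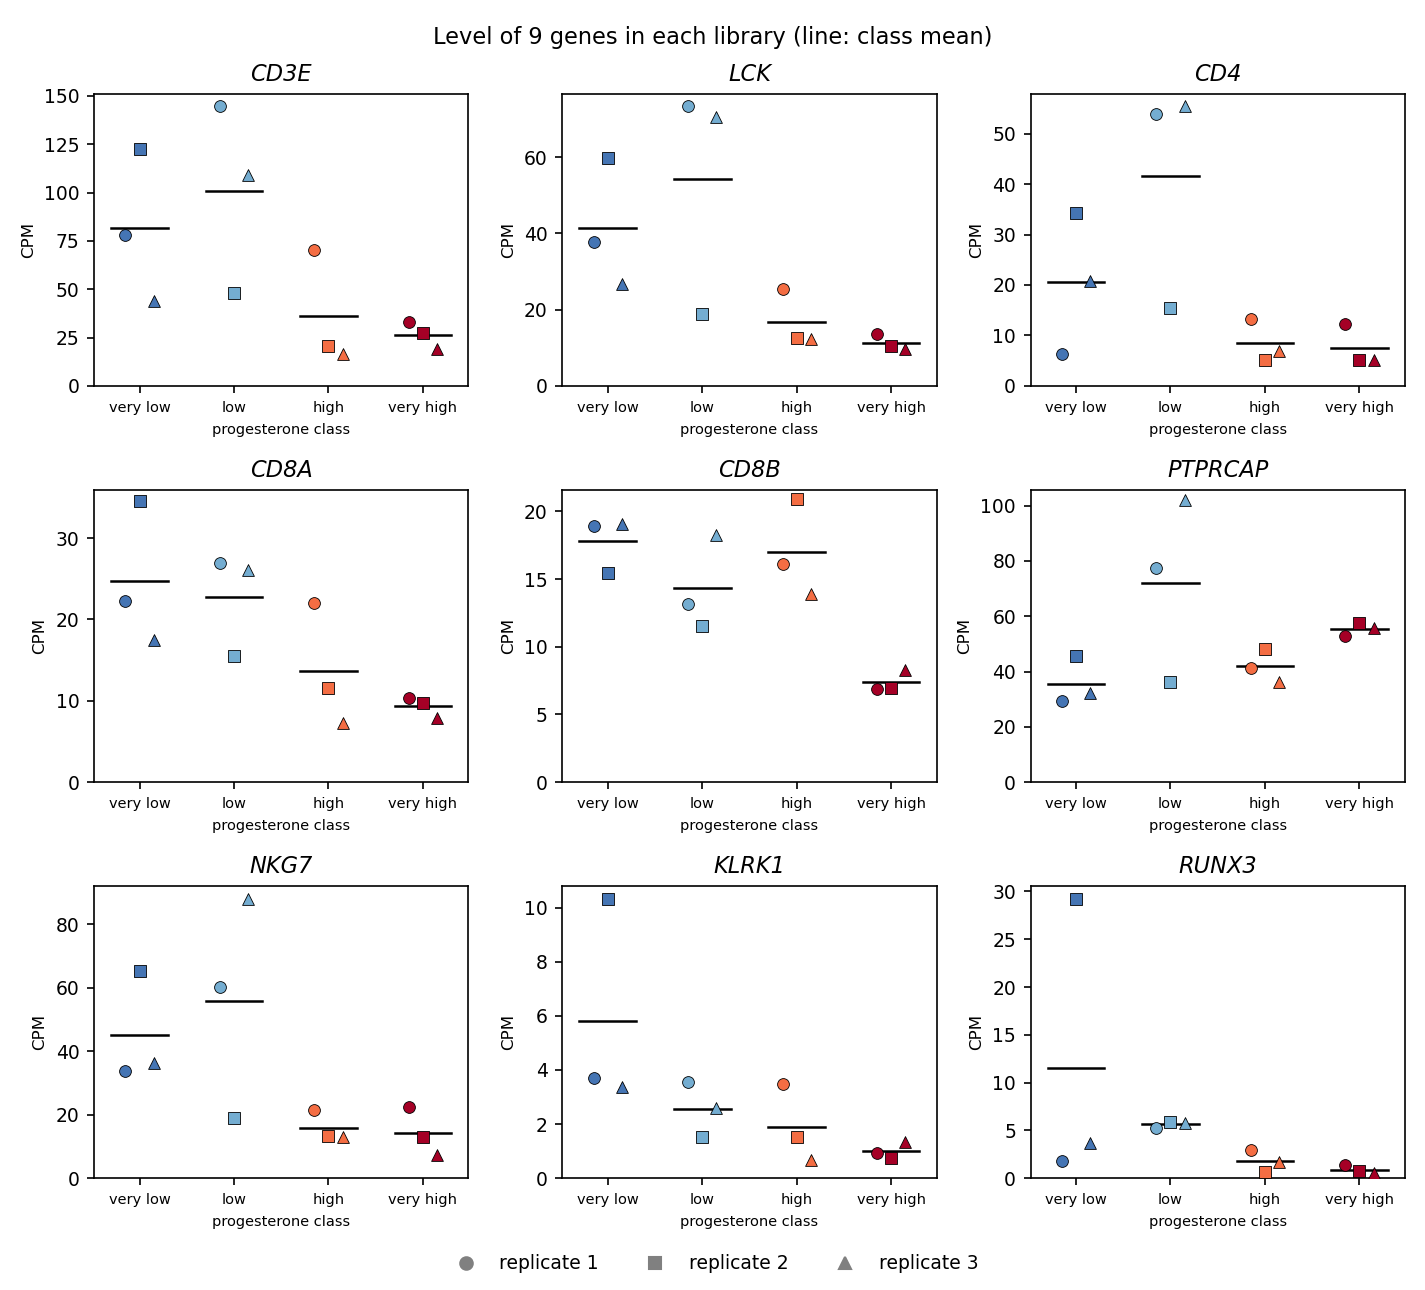
Level in CPM of 9 genes (vertical axes, from 0) in the 4 progesterone classes, with one symbol per library, its shape giving the replicate, and a line at the class mean. CD8B is low in the 3 very high libraries alone (6.86 to 8.31 CPM), and PTPRCAP lies between 52.7 and 57.7 CPM there, above all very low libraries.

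The co-receptor genes did not behave alike. CD4 had 6.36, 34.3 and 20.8 CPM in the very low libraries and 53.9, 15.5 and 55.4 CPM in the low libraries. Its levels were 13.3, 5.23 and 6.96 CPM in the high and 12.2, 5.11 and 5.15 CPM in the very high libraries. Very low replicate 1 thus had a CD4 level as low as the upper classes, although its CD3E was 78.3 CPM. CD8A, the alpha chain of CD8, which NK cells and other lymphocytes can also carry, had 22.3, 34.6 and 17.4 CPM in the very low libraries and 26.9, 15.5 and 26.1 CPM in the low class. It had 22.0, 11.61 and 7.23 CPM in the high and 10.3, 9.72 and 7.92 CPM in the very high class. The 3 very high libraries lay below all 6 of the lower classes. CD8B, the beta chain of the CD8 pair of conventional cytotoxic T cells, had 18.9, 15.5 and 19.1 CPM in the very low libraries, 13.2, 11.5 and 18.2 CPM in the low and 16.1, 20.9 and 13.9 CPM in the high libraries. Only the very high libraries stood apart, at 6.86, 6.98 and 8.31 CPM, below all other 9. Very low replicate 2 and low replicate 1, the richest libraries for CD3E, were not the richest for CD8B.

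Among the other surface proteins, CD2, an adhesion receptor of T and NK cells, had 21.6, 51.4 and 21.6 CPM in the very low libraries, 59.4, 17.9 and 48.8 CPM in the low, 30.3, 7.14 and 4.77 CPM in the high and 13.5, 8.35 and 8.44 CPM in the very high libraries. The very high libraries lay below both lower classes, and high replicate 1 did not. CD5, a brake on T cell receptor signalling that some B cells also carry, ranged from 10.6 to 56.1 CPM in the lower and from 3.70 to 13.7 CPM in the upper classes. CD96, a receptor of NK and T cells for nectin-family ligands, ranged from 6.78 to 27.9 CPM and from 5.15 to 11.1 CPM.

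The costimulatory receptors were sparsely counted. ICOS, which activated helper T cells display, had 2.83, 17.3 and 5.07 CPM in the very low libraries and 38.6, 4.48 and 22.7 CPM in the low libraries. It had 4.56, 0.383 and 1.36 CPM in the high and 3.09, 1.25 and 1.06 CPM in the very high libraries. The low class led in 2 of its 3 libraries, and the classes overlapped except for very high below low. CTLA4, an inhibitory receptor of activated and regulatory T cells, had 2, 18 and 3 reads in the very low and 15, 2 and 9 reads in the low libraries, 1, 0 and 0 reads in the high and 0 reads in each of the 3 very high libraries. CD28, the main costimulatory receptor, had 1, 8, 3, 18, 1 and 9 reads in the lower and 7, 0, 0, 2, 0 and 0 reads in the upper classes. CD27 was listed at 0 in all 12 libraries. A count of 0 allows up to 3 reads, or 0.343 to 0.774 CPM depending on the library, and covers counting error only.

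Of the signalling genes, LCK, the kinase that starts T cell receptor signalling, had 37.6, 59.9 and 26.8 CPM in the very low libraries and 73.5, 18.9 and 70.5 CPM in the low libraries. It had 25.5, 12.6 and 12.4 CPM in the high and 13.6, 10.6 and 9.76 CPM in the very high libraries. Both upper classes lay below the very low class throughout. LCP2, the adaptor SLP-76, which myeloid cells and platelets also use, had 30.4, 100, 28.9, 78.4, 30.2 and 64.0 CPM in the very low libraries and low libraries, in that order. It had 22.9, 12.9, 12.5, 18.9, 11.3 and 13.3 CPM in the high and very high ones, so the lower and the upper classes did not overlap in LCP2. ZAP70, the kinase downstream of LCK, had 13.8, 74.1 and 21.6 CPM in the very low libraries and 53.9, 20.5 and 39.5 CPM in the low libraries. Its values were 19.3, 13.4 and 12.1 CPM in the high and 23.3, 18.4 and 15.3 CPM in the very high libraries, which overlapped the very low class. LAT, the membrane adaptor that gathers the signal, ranged from 14.8 to 59.8 CPM in the lower and from 7.01 to 17.2 CPM in the upper classes. UBASH3A, a negative regulator of receptor signalling, ranged from 4.61 to 15.02 and from 1.32 to 5.23 CPM. SH2D1A, the adaptor SAP of T and NK cells, ranged from 3.71 to 30.5 and from 0.638 to 6.17 CPM. These 3 genes overlapped between the lower and the upper classes through high replicate 1.

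PTPRCAP, a small membrane protein bound to the leukocyte phosphatase CD45, was the exception of the group. It had 29.2, 45.4 and 32.2 CPM in the very low libraries, 77.6, 36.3 and 102 CPM in the low, 41.3, 48.1 and 36.3 CPM in the high and 52.7, 57.7 and 55.8 CPM in the very high libraries. The very high libraries lay above all very low libraries and between those of the low class. The log2 fold change of very high over very low was 0.64 (SE 0.32, edgeR adjusted p = 0.253), the sole positive value among the 33 genes in that comparison.

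The cytotoxic genes had low counts and wide spreads. PRF1, which encodes perforin, had 11.67, 29.2 and 4.81 CPM in the very low libraries and 13.7, 7.29 and 10.1 CPM in the low libraries. It had 5.64, 3.32 and 4.09 CPM in the high and 7.32, 2.37 and 1.98 CPM in the very high libraries. The high class lay below the low class, and the very high class overlapped both lower classes. NKG7, a granule protein of cytotoxic lymphocytes, had 33.8, 65.3 and 36.1 CPM in the very low libraries, 60.2, 18.9 and 88.1 CPM in the low, 21.5, 13.4 and 12.8 CPM in the high and 22.3, 13.1 and 7.39 CPM in the very high libraries. Here both upper classes lay below the very low class, and low replicate 2 lay among the upper libraries. GZMA, the tryptase-like granzyme, had 0.884, 14.5 and 2.08 CPM in the very low libraries and 3.43, 2.43 and 2.89 CPM in the low libraries. It had 1.48, 0.510 and 0.682 CPM in the high and 1.37, 0.499 and 0.792 CPM in the very high libraries, where 4 to 12 reads stood behind each value. The very low mean of GZMA rested on replicate 2, since replicate 1 lay among the upper classes.

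GZMB, the granzyme that triggers apoptosis, had 2.65, 11.4 and 13.9 CPM in the very low libraries, 4.88, 4.35 and 9.99 CPM in the low, 4.29, 2.30 and 0.955 CPM in the high and 3.66, 2.87 and 2.51 CPM in the very high libraries. Very low replicate 3 was its richest library, which held for no other gene of the group. GNLY, an antimicrobial granule protein, had 1.41, 20.4 and 4.55 CPM in the very low libraries, 8.43, 4.73 and 17.8 CPM in the low, 4.16, 4.21 and 1.77 CPM in the high and 5.38, 2.49 and 1.06 CPM in the very high libraries. The high class lay below the low class, and the very high class overlapped both lower classes. KLRK1, the activating receptor NKG2D of NK and cytotoxic T cells, had 3.71, 10.3 and 3.38 CPM in the very low libraries, 3.56, 1.54 and 2.61 CPM in the low, 3.49, 1.53 and 0.682 CPM in the high and 0.915, 0.748 and 1.32 CPM in the very high libraries. The 3 very high libraries lay below all 6 of the lower classes, on 5 to 40 reads over the 12 libraries. Granzymes and lectin-like receptors have related copies in the genome, and how reads matching several copies were counted is not given in the sources used here, so these values are uncertain.

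Of the cytokine receptors, IL2RG, the common gamma chain shared by the receptors of several interleukins, had 25.3, 81.3 and 31.1 CPM in the very low libraries, 115, 29.7 and 86.5 CPM in the low, 26.8, 9.82 and 15.8 CPM in the high and 19.1, 17.2 and 15.3 CPM in the very high libraries. The low class lay above both upper classes, and high replicate 1 overlapped the very low class. IL7R, the interleukin 7 receptor, which sustains resting T cells, had 1.77, 33.6 and 2.47 CPM in the very low libraries, 7.64, 4.73 and 2.32 CPM in the low, 2.15, 0.255 and 0.955 CPM in the high and 1.26, 0.499 and 0.132 CPM in the very high libraries. Very low replicate 2 stood far above all other libraries in IL7R, and the very high values rested on 1 to 11 reads.

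Of the 4 transcription factors RUNX3 alone passed the edgeR threshold, in the trend. RUNX3, which drives CD8 T cell and NK cell differentiation, had 1.77, 29.2 and 3.64 CPM in the very low libraries, 5.27, 5.89 and 5.79 CPM in the low, 2.95, 0.638 and 1.64 CPM in the high and 1.37, 0.748 and 0.528 CPM in the very high libraries. The low class was tight and lay above both upper classes, and very low replicate 2 again stood far above its class. TBX21, the T-bet factor of type 1 responses, ranged from 2.34 to 14.97 CPM in the lower and from 1.53 to 6.07 CPM in the upper classes. EOMES, its relative, ranged from 1.43 to 3.87 and from 0.273 to 1.74 CPM, on at most 21 reads. IKZF3, a lymphoid zinc finger factor, ranged from 0.650 to 11.1 and from 0.273 to 2.28 CPM. The upper and lower classes overlapped in all 3, although the very high libraries lay below both lower classes for EOMES.

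Of the chemokine genes, CXCR3, the receptor that guides activated T and NK cells to inflamed tissue, had 4.77, 9.55 and 1.69 CPM in the very low libraries, 6.72, 2.43 and 6.37 CPM in the low, 2.55, 0.765 and 0.273 CPM in the high and 1.37, 0.499 and 0.528 CPM in the very high libraries. The 3 very high libraries lay below both lower classes. CCL5, a chemokine that T and NK cells secrete, had 105, 165 and 41.6 CPM in the very low libraries, 143, 72.4 and 153 CPM in the low, 87.8, 28.4 and 48.0 CPM in the high and 38.6, 30.2 and 22.3 CPM in the very high libraries. The very high class had the lowest mean and lay below both lower classes. The high class overlapped the very high class and both lower classes. CCR7, the receptor by which naive and memory T cells enter lymph nodes, ranged from 1.41 to 19.1 CPM in the lower and from 0.374 to 6.75 CPM in the upper classes.

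Between the extreme classes, that is very high over very low, 1 of the 33 tested genes fell and none rose. Over all 10959 tested genes 0.411% fell. The gene was CD8B, at 17.8 ± 2.04 CPM (SD, n = 3) in very low and 7.39 ± 0.804 CPM (SD, n = 3) in very high libraries, with a log2 fold change of -1.27 (SE 0.27, edgeR adjusted p = 0.0482). The furthest fold changes belonged to genes with larger spreads: IL7R had -4.25 (SE 1.28), RUNX3 -3.65 (SE 1.003), CXCR3 -2.68 (SE 0.88), GZMA -2.65 (SE 0.93) and KLRK1 -2.51 (SE 0.69). Their edgeR adjusted p lay between 0.0758 and 0.125. The log2 fold change was below 0 for 32 of the 33 genes, with a median of -1.65, beside 57.6% and -0.12 over all tested genes. These counts describe the tested genes only, since a gene passes the count minimum more easily where it is high. With no adjustment 21 of 33 had a p under 0.05 and a lower level, where 13.4% of all tested genes did. In 20 of 33 every very high library lay below every very low one, which held for 12.2% of all tested genes. DESeq2 called 16 of 35 lower, against 6.51% of all genes it tested, whereas limma-voom called 0 of 33. In edgeR the count was also 0 with no low count filter, after thinning and with only the 2 classes fitted. Without very low replicate 2 the fold change was -1.67 for IL7R, -1.56 for RUNX3 and -0.71 for GZMA, the median of the 33 genes was -1.05, and CCR7, GNLY, IKZF3, TBX21 and ZAP70 had values above 0. Without very low replicate 1 that median was -1.87, and no gene changed sign. The CD8B call held without very low replicate 1, where LCP2, IL7R, RUNX3 and GZMA joined it (5 of 35 tested), and without low replicate 3. It was lost without any other single library: 0 genes were called without very low replicate 2, low replicate 1 or any high or very high library, CCL5 alone without very low replicate 3 and LCK alone without low replicate 2.

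**Figure D3:**
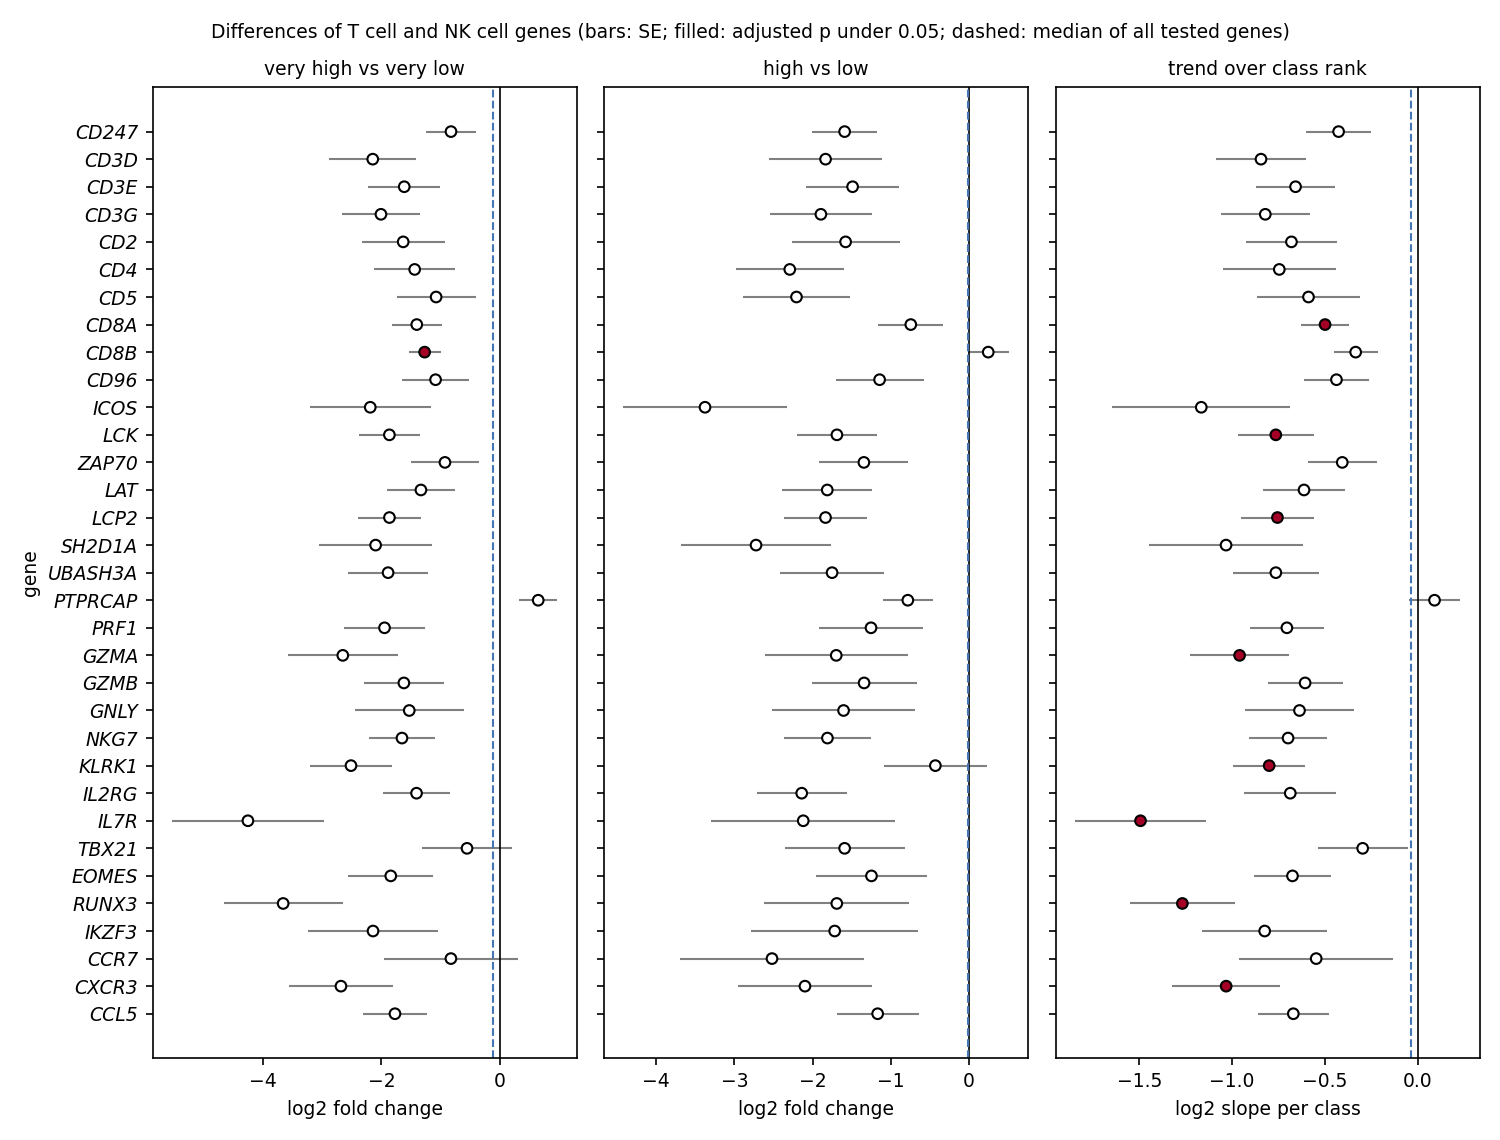
Differences of the 33 tested T and NK cell genes for very high over very low, high over low (both log2 fold change) and the slope over the 4 ordered classes (log2 per class), with bars for the standard error. Filled points passed an edgeR adjusted p of 0.05, and the dashed line is the median of all tested genes. Nearly all points lie left of 0, with PTPRCAP to the right in the panels of the extreme classes and of the slope, and CD8B in that of high over low.

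High over low, the 2 middle classes, gave 0 calls among these genes, as among all tested genes (0%, edgeR). The largest differences were those of ICOS (log2 fold change -3.37, SE 1.04), SH2D1A (-2.72, SE 0.96), CCR7 (-2.52, SE 1.18), CD4 (-2.29, SE 0.69) and CD5 (-2.21, SE 0.68), with an edgeR adjusted p of 0.351 to 0.495. CD8B was the sole gene with a positive value, 0.25 (SE 0.26, edgeR adjusted p = 0.783). The median was -1.69, beside -0.02 over all tested genes. At an unadjusted p under 0.05, 19 of 33 were lower, against 6.11% of all tested genes, and in 11 of 33 the high libraries all lay below the low ones, against 9.68%. DESeq2 called CD4, CD5, CD247, ICOS, IL2RG and LCP2 lower, 6 of 35, against 1.07%.

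Very high over low likewise gave 0 calls in edgeR (0% of all tested genes), and all 33 tested genes had a value below 0, with a median of -1.93 beside -0.01. At an unadjusted p under 0.05, 21 of 33 were lower (7.44% of all tested genes), and in 23 of 33 every very high library lay below every low one (11.1%). DESeq2 called 12 of 34 lower against 2.33%, CD4, ICOS, SH2D1A and CD8B among them. High over very low gave 0 calls (0%), 18 of 33 lower at an unadjusted p under 0.05 (10.2%) and 6 of 33 with no overlap (9.63%). DESeq2 called LCP2, IL7R and RUNX3 there, 3 of 35 against 2.94%. These pairs share libraries with the comparisons above and are no separate evidence.

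The 2 upper classes, and likewise the 2 lower classes, differed least from each other. Very high over high gave 0 calls (0%), with a median of -0.18, and 1 gene had an unadjusted p under 0.05. That gene was CD8B, with a log2 fold change of -1.20 (SE 0.27, edgeR adjusted p = 0.99994). Of all 10959 tested genes 43 were lower and 44 higher at that unadjusted p. Very low over low gave 0 calls (0%) with a median of -0.24, and 1 gene had an unadjusted p under 0.05, PTPRCAP, with a log2 fold change of -1.02 (SE 0.32, edgeR adjusted p = 0.316). Here 572 of all 10959 tested genes were lower and 697 higher at that unadjusted p. DESeq2 gave 0 calls among these genes in both.

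Along the order of the 4 classes, from very low to very high, 8 of the 33 tested genes fell and none rose. Over all tested genes 4.46% fell. The slopes, in log2 units per class, were -1.49 for IL7R (SE 0.35), -1.27 for RUNX3 (SE 0.28), -1.03 for CXCR3 (SE 0.29), -0.96 for GZMA (SE 0.27), -0.80 for KLRK1 (SE 0.19), -0.76 for LCK (SE 0.20), -0.76 for LCP2 (SE 0.19) and -0.50 for CD8A (SE 0.13). Their edgeR adjusted p ran from 0.0313 to 0.0494. PRF1 came next at -0.71 (SE 0.20, edgeR adjusted p = 0.0505), and CD8B, called between the extreme classes, had -0.33 (SE 0.12, edgeR adjusted p = 0.0934). The median slope was -0.69, beside -0.04 over all tested genes. The falls were not even steps: the class mean fell at each step in 8 genes, CD8A, PRF1, GZMA, KLRK1, IL7R, RUNX3, CXCR3 and IKZF3, while in 21 of 33 the low class had a higher mean than the very low class. By role, the calls comprised 2 of 6 cytotoxic genes, 2 of 7 signalling genes, 1 of 6 surface genes, 1 of 2 cytokine receptors, 1 of 4 transcription factors, 1 of 3 chemokine genes and none of the 4 receptor chains or of the 1 costimulatory receptor tested. DESeq2 called 25 of 35 lower, CTLA4 among them, against 9.61% of all genes it tested, whereas limma-voom called 0 of 33. Without very low replicate 2 the slope was -0.94 for IL7R, -0.83 for RUNX3 and -0.50 for GZMA. The median slope was -0.60 without very low replicate 2 and -0.78 without very low replicate 1. The count of 8 went to 19 of 35 tested, CTLA4 among them, without very low replicate 1 and to 0 of 33 without very low replicate 2. It was 11 without very low replicate 3. The count was 6, 5 and 8 without low replicates 1, 2 and 3. It was 2, 1 and 0 without high replicates 1, 2 and 3, and 1, 0 and 0 without very high replicates 1, 2 and 3. The share of all tested genes called in these fits is not given here, so whether such shifts are particular to this group cannot be said.

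Ratios of genes within a library were compared between libraries only, since gene lengths differ between the genes, and carry no test. The ratio of CD8A to CD4 was 0.470 to 1.0 in the low, 1.04 to 2.22 in the high and 0.841 to 1.90 in the very high class. In the very low class it was 0.838 and 1.01 in replicates 3 and 2 and 3.50 in replicate 1, the library with the highest smooth muscle markers. The ratio of CD3E to PTPRC, which encodes CD45 of all leukocytes, was 0.462 to 1.295 in the very low, 0.592 to 0.786 in the low, 0.492 to 1.296 in the high and 0.326 to 0.773 in the very high class. The classes overlapped in it, although CD3E itself was lower in the very high class. LCK to PTPRC was 0.225 to 0.623 in the very low, 0.232 to 0.505 in the low and 0.367 to 0.469 in the high class. It was 0.169 to 0.312 in the very high class, which overlapped both lower classes but not the high one.

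Of the cytotoxic genes relative to CD3E, NKG7, PRF1, GZMA and GNLY overlapped between all classes, and GZMB and KLRK1 did not. NKG7 to CD3E was 0.431 to 0.827, 0.393 to 0.808, 0.305 to 0.770 and 0.392 to 0.672 in very low, low, high and very high libraries. PRF1 to CD3E was 0.1101 to 0.238 in the very low and 0.0860 to 0.221 in the very high class. KLRK1 to CD3E was 0.0474 to 0.0842 in the very low and 0.0239 to 0.0318 in the low class, so those classes did not overlap. It was 0.0410 to 0.0741 in the high class, which lay above the low class, and 0.0271 to 0.0699 in the very high class. GZMB to CD3E was 0.0339 to 0.318 in the very low, 0.0337 to 0.0915 in the low, 0.0574 to 0.111 in the high and 0.104 to 0.133 in the very high class, so the very high libraries all lay above the low ones.

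Some ratios separated certain classes or libraries from others. PTPRCAP to PTPRC was 0.171 to 0.531 in the very low and 0.421 to 0.732 in the low class, and 0.760 to 1.53 in the high and 0.964 to 1.62 in the very high class. ZAP70 to LCK was 1.57 to 1.74 in the very high libraries and 0.366 to 1.24 in the other 9. CD8B to CD8A reached 1.80 and 1.92 in high replicates 2 and 3 and lay between 0.448 and 1.10 in the other 10 libraries. CD247 to CD3E was 0.715 to 0.867 in the very high libraries and 0.368 to 0.661 in those of the lower classes, and it spanned 0.339 to 0.926 in the high class. The last 3 ratios were chosen after the values were seen.

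**Figure D4:**
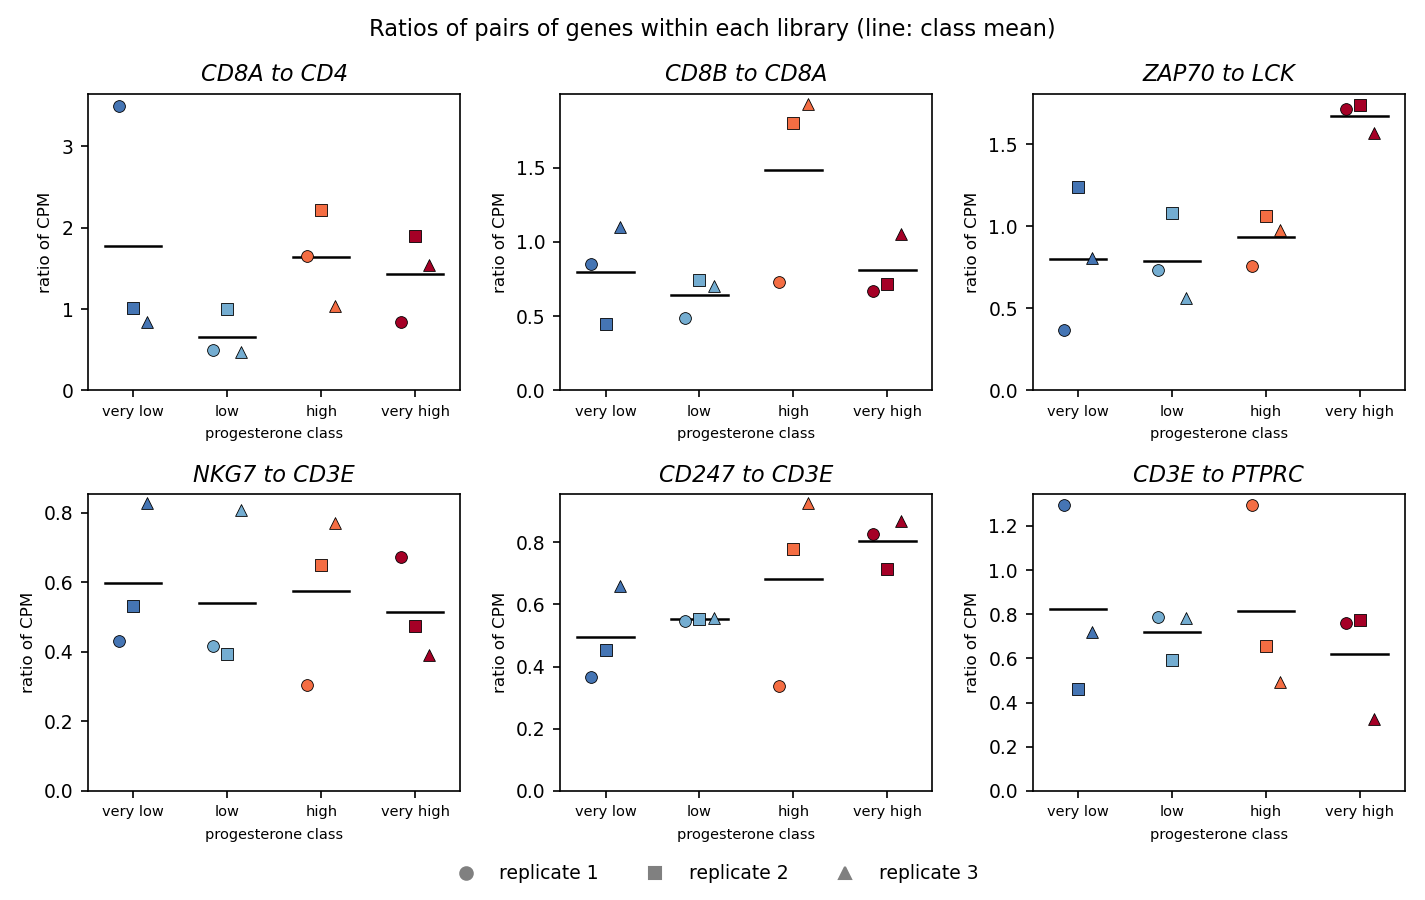
Ratio of CPM of 6 pairs of genes within each library (vertical axes, from 0) in the 4 progesterone classes, with one symbol per library and a line at the class mean. ZAP70 to LCK is highest in the 3 very high libraries (1.57 to 1.74), and CD3E to PTPRC overlaps between all classes.

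Further T and NK cell genes, a list of 54 of which 46 had a row and 43 were tested, gave the same picture with exceptions. Between the extreme classes 1 of 43 fell and none rose, beside 0.411% falling over all tested genes. Along the class order 5 of 43 fell and none rose, beside 4.46%. KLRD1, the CD94 chain of NK cell receptors, was called in both. It had 3.00, 3.87 and 1.69 CPM in the very low libraries, 1.71, 1.54 and 2.03 CPM in the low, 0.537, 0.510 and 0.409 CPM in the high and 0.458, 0.623 and 0.528 CPM in the very high libraries. The upper and lower classes did not overlap in KLRD1, whose log2 fold change was -2.36 between the extreme classes (SE 0.46, edgeR adjusted p = 0.0399) and whose slope was -0.89 (SE 0.16, edgeR adjusted p = 0.0216). Its values rested on 12 to 17 reads per library in the lower and on 3 to 5 reads in the upper classes, near the floor of counting. The KLRD1 call held in 6 of 18 alternatives between the extreme classes and in 14 of 17 in the trend. The other calls of the trend were the T cell receptor associated adaptor TRAT1 (slope -0.82), the adaptor TYROBP of NK and myeloid cells (-0.78), the protease CTSW (-0.57) and CD7 (-0.56), with an edgeR adjusted p of 0.0341 to 0.0421. FOXP3, the factor of regulatory T cells, had 0.707 to 3.38 CPM in the very low libraries, 3.20 to 5.14 CPM in the low, 2.18 to 4.70 CPM in the high class and, in the very high one, 2.64 to 4.46 CPM. Its slope was 0.20 (SE 0.18, edgeR adjusted p = 0.487), one of 6 positive slopes in that list, beside 37 negative ones. The largest positive slope was that of LEF1, at 0.36 (SE 0.16, edgeR adjusted p = 0.16). IL2RA, in the same list, went the other way from FOXP3, with a slope of -0.93 (SE 0.32, edgeR adjusted p = 0.0848). CTLA4, which regulatory T cells also carry, had fewer reads in every upper than in any lower library. FOXP3, LEF1 and IL2RA were named after their values were seen.

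Ligands and cytokines that act on these cells formed a list of 24, of which 20 had a row and 13 were tested. CADM1, an adhesion protein of epithelia and ligand of a receptor on activated NK and cytotoxic T cells, fell between the extreme classes (log2 fold change -1.94, SE 0.41, edgeR adjusted p = 0.0476) and along the class order (slope -0.67, SE 0.12, edgeR adjusted p = 0.0216). The other 12 passed in neither. Over all tested genes 0.411% fell between the extreme classes and 4.46% along the class order. IL7, the ligand of IL7R, had a slope of -0.65 (SE 0.18, edgeR adjusted p = 0.0509). CXCL9, a ligand of CXCR3, ranged from 6.76 to 103 CPM in the very low libraries, from 23.2 to 146 CPM in the low, from 1.40 to 42.9 CPM in the high class and, in the very high one, from 2.51 to 68.3 CPM. The other CXCR3 ligands in the table, CXCL10 and CXCL11, were listed at 0 in all 12 libraries. IL7 and the CXCR3 ligands were named after their values were seen.

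Markers of other cells were set beside the T and NK cell genes. The mean log2 CPM of the 33 tested T and NK cell genes was 3.19, 4.83 and 3.26 in the very low and 4.56, 3.15 and 4.39 in the low libraries. It was 3.28, 2.02 and 2.04 in the high and 2.82, 2.17 and 2.03 in the very high libraries. The mean of 16 pan-leukocyte genes, all in the table and tested, had the same 3 richest libraries, very low replicate 2 and low replicates 1 and 3, at 6.64 to 6.71. It was 5.16 to 5.29 in the other 3 libraries of the lower classes and 4.17 to 5.22 in the upper classes. The difference between the 2 means ran from -2.91 to -1.87 over the 12 libraries.

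The macrophage and dendritic cell mean, over 7 tested of 17 listed genes, was 4.85 to 6.30 in the very low, 4.33 to 5.997 in the low, 3.16 to 4.02 in the high and 2.96 to 3.80 in the very high class. The neutrophil mean, over 7 tested of 11, was 3.37, 8.34 and 4.59 in the very low libraries and 5.89 to 6.82 in the low class. It was 3.46 to 4.58 in the high and 3.18 to 4.05 in the very high class. The low class thus lay above both upper classes, and the very low class overlapped them. The B and plasma cell mean, over 10 tested of 15, was 3.54 to 5.61, 4.25 to 6.18, 2.78 to 4.64 and 3.73 to 4.82 in very low, low, high and very high libraries. The endothelial mean, over 12 tested of 12, was 3.60 to 4.78 in the very low and 4.31 to 5.25 in the low class. It was 4.58 to 5.08 in the high and 4.11 to 4.95 in the very high class. The stromal mean, over 11 tested of 12, was 8.16 to 10.9 in the very low and 9.22 to 11.1 in the low class. It was 9.46 to 9.86 in the high and 9.26 to 10.1 in the very high class. Erythroid markers, of which 3 of 10 were tested, lay between 0.342 and 2.39 in all libraries. Smooth muscle markers, 14 of 14 tested, were high in the libraries of the upper classes, where the T and NK cell genes were low, and also in very low replicate 1. In the trend, where 4.46% of all tested genes fell, 6 of the 7 tested macrophage and dendritic cell genes did, among them CD68 (slope -0.95, SE 0.16, edgeR adjusted p = 0.0213), a lysosomal protein of macrophages, and CD14 (slope -1.10, SE 0.23, edgeR adjusted p = 0.0255), a receptor for bacterial lipopolysaccharide. CD68 and ITGAM also fell between the extreme classes, where 0.411% of all tested genes did. AIF1, C1QA, C1QB and C1QC, further macrophage genes, were listed at 0 in all 12 libraries. Of the neutrophil genes LTF and S100A12 fell in the trend, of the B cell genes CR2, and of the pan-leukocyte genes CD53. KRT7 and KRT19 fell in the trend among the 13 tested epithelial genes, and none of the 14 smooth muscle genes passed the threshold there. All 14 were higher at an edgeR unadjusted p under 0.05 for high over low and for very high over low. That held for 455 and 489 of all 10959 tested genes. The part of these cells in the T and NK cell values was not tested.

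**Figure D5:**
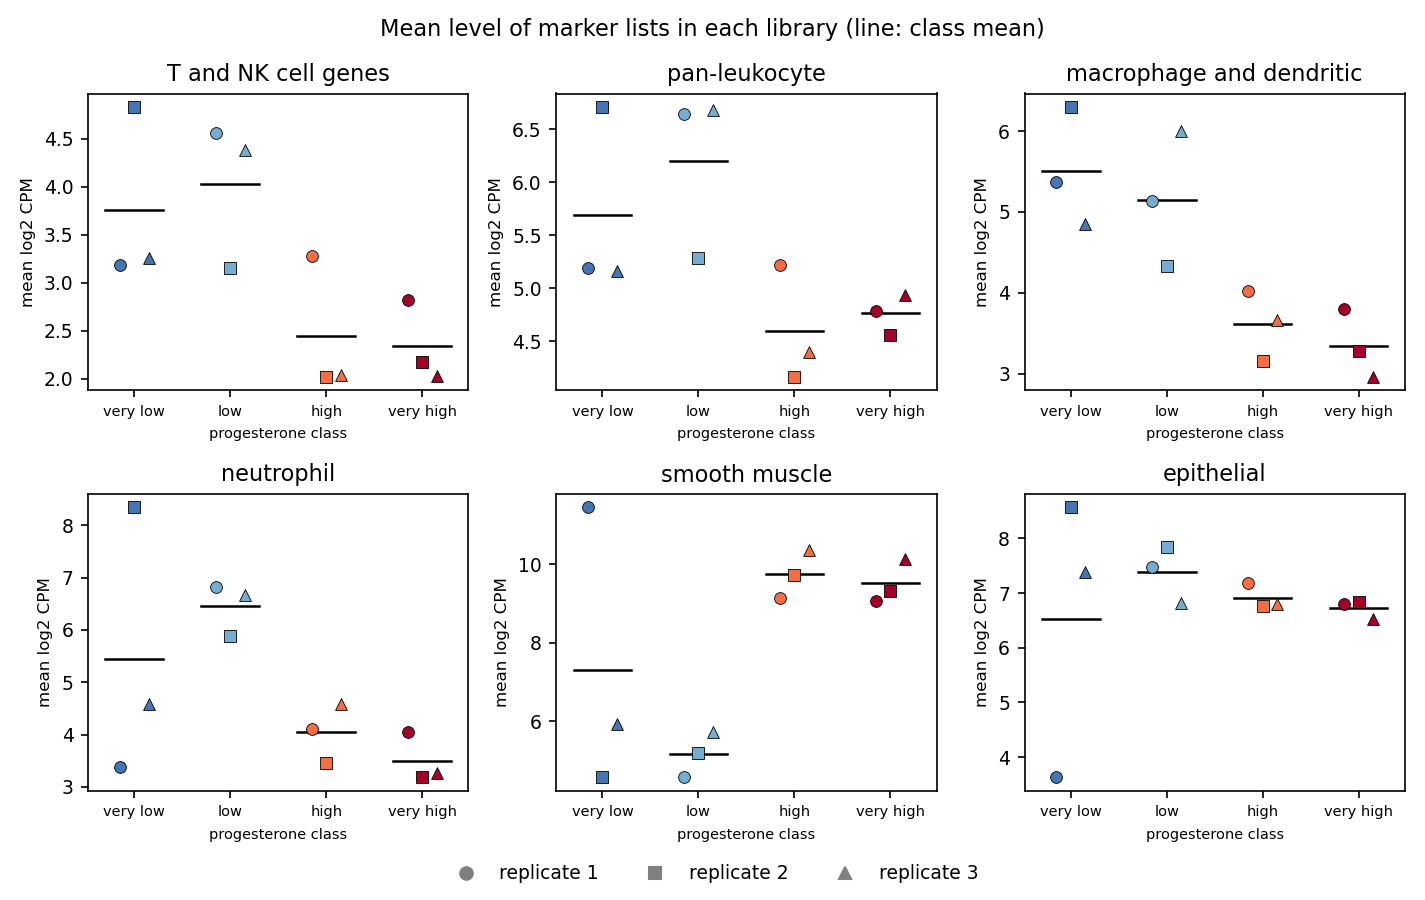
Mean log2 CPM of the tested genes of 6 marker lists in each library (vertical axes, log scale by construction) across the 4 progesterone classes, with one symbol per library and a line at the class mean. T and NK cell genes and pan-leukocyte genes share their 3 richest libraries, and smooth muscle markers are high in both upper classes and in very low replicate 1.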

How the data were processed

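The authors deposited raw counts, whole numbers of reads per gene symbol in 1 column per sample, each column named by its sample's title. Per the labels' protocols, libraries were made with a stranded kit from oligo-dT captured RNA, pooled and sequenced as paired reads. Trimmomatic 0.32, FastQC 0.11.2 and the genome builds bosTau8 and UMD3.1 are named in the submitters' processing notes. Which aligner, counter, strand setting and annotation were used is not given in the sources used here. The gene table used for names is of assembly ARS-UCD2.0, so no coordinates are printed. All 39 symbols matched it, 5 of them overlap another gene there, and none overlaps a tested one.

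From the counts, edgeR 4.0.16 (R 4.3.3) kept 10959 genes by filterByExpr with a count minimum of 10, scaled libraries by TMM and fitted 1 mean per class to all 12 libraries by quasi-likelihood. The trend was a separate edgeR fit on class rank, 1 to 4. Adjustment was by Benjamini-Hochberg across every tested gene (threshold 0.05). Standard errors are the log2 value divided by the root of the F statistic. DESeq2 1.42.0, limma 3.58.1 (voom) and other settings were alternatives. The fit was tested on simulated counts that varied less between replicates than these data, whose common dispersion, a measure of that spread, was 0.194. That test therefore does not measure error or power here. Members and lists were chosen with earlier results of these data known. All members are accounted for, and those past the threshold and 14 lineage markers are given library by library. No sequence is shown.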

Additional observations from a re-analysis of the deposited data

How the results depend on the processing

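The count of T and NK cell genes called between the extreme classes (1) was 0 with no low count filter, with limma-voom, after thinning every library to the smallest and with only the 2 classes compared, 16 with DESeq2, and 0 to 5 when single libraries were left out. The count for the trend (8) was 5 with no low count filter, 5 after thinning, 0 with limma-voom, 25 with DESeq2 and 0 to 19 when single libraries were left out. Size factors of DESeq2 in edgeR left 1 and 7. The other 5 pairs of classes gave 0 under every edgeR and limma-voom setting, and DESeq2 gave 6 for high over low, 12 for very high over low and 3 for high over very low. No gene called in edgeR changed direction in any alternative. CD8B held its call between the extreme classes in 4 of 19 alternatives (adjusted p 0.000325 to 0.166), and in the trend RUNX3 held in 11 of 18, KLRK1 and IL7R in 9, LCK and LCP2 in 8, CD8A in 5, GZMA in 4 and CXCR3 in 3. The share of all tested genes called is given for the main fit and DESeq2 only. The cause of these changes was not tested.

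With the replicate number of the titles as a block, 0 genes of the group were called in either comparison. The labels do not say that a number marks a shared animal or day. Deviations of same-numbered libraries from their class means correlated between -0.298 and 0.294 over 18 pairs. For libraries of other numbers the range was -0.391 to 0.369 over 36 pairs. Of 12 libraries, 4 correlated best with one of their own number. The numbers were therefore not taken to pair samples. Depth limits the least counted genes: IL7R had 1 to 130 reads, EOMES 2 to 21 and KLRK1 5 to 40 per library.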

Other observations

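Some lymphocyte genes in no list were looked up after their values were seen. WC1 proteins mark gamma delta T cells of cattle and belong to a family of similar genes, so reads may have been split between copies. WC1.3 had 2.83, 3.87 and 0.520 CPM in the very low libraries, 4.22, 2.30 and 2.17 CPM in the low, 2.42, 1.28 and 0.273 CPM in the high and 5.38, 0.748 and 1.58 CPM in the very high libraries, with a slope of -0.05 per class (edgeR adjusted p = 0.929). WC1-12 had 1.59 to 8.70 CPM in the lower and 1.45 to 2.55 CPM in the upper classes (slope -0.45, edgeR adjusted p = 0.154). KLRF1, an NK cell receptor, had 0.353, 2.07, 0.780, 3.16, 0.640 and 2.17 CPM in the very low libraries and low libraries and 0 to 0.955 CPM in the upper classes (slope -0.82, edgeR adjusted p = 0.203). None of these 3 genes passed the threshold in the trend.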
